A study of Drosophila melanogaster with 3 samples.

Results

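The intron peaks of shorter genes were 2678 of the 10650 ChIP-seq peaks of CG11504, a MADF-domain protein, in the list thresholded on the irreproducible discovery rate (IDR). They were chosen by rank and position: the 500 peaks with the highest deposited signal were set aside, and a remaining peak was kept when its summit lay over 500 bp from every annotated transcription start site, outside every exon, and inside a protein-coding gene, the longest such gene spanning under 50 kb. ChIP-seq sequences the DNA that is precipitated with a protein, and a summit is the position of highest signal within a peak. All chromatin came from whole Drosophila melanogaster embryos of 0 to 18 h, of both sexes, from 1 transgenic line in which CG11504 carries GFP at its C-terminus. It was sonicated to fragments of 200 to 800 bp and precipitated with an antibody to the GFP. There were 3 biological replicates and no second genotype, and the replicate lists, from which the IDR list was derived, were called against 1 shared control alignment. A whole embryo pools all its cell types over a span of many developmental stages, the promoter that drives the tagged gene is not given in the sources used here, and no library from untagged embryos was analysed here. All 2678 summits lay in an annotated intron of their host gene, and 107 of them lay inside more than 1 protein-coding gene, where the longest counts as the host. Median peak width was 369 bp, and median signal was 543, against 474 for the intron peaks of genes of 50 kb or more and 610 for promoter peaks below the 500 strongest. Signal chose the peaks, so these medians are a description.

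Introns of Drosophila genes hold many of the enhancers through which transcription factors switch genes on in particular cells, and first introns, which lie nearest to the promoter, are often rich in them. An enhancer can act on the gene that contains it or on a neighbour. MADF-domain proteins, the family of the transcription factor Adf-1, bind DNA through a domain related to that of Myb.

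Summit sequences are shown first because GC content at the summits was lower than in the sequence around them. The lines below give the summit with 50 bp on each side, read on the plus strand of dm6, for the 5 strongest of the intron peaks and for 3 further peaks that hold words counted later. Capitals mark the words TATAAA and TAATTA and GTATTT and ATATTA and AATATT on either strand.
eff, chr3R:14738600-14738700: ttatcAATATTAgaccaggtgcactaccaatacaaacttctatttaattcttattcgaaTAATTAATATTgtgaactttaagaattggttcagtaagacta
bon, chr3R:20594423-20594523: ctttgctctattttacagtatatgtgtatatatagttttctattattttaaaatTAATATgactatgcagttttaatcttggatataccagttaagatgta
mol, chr2L:14996013-14996113: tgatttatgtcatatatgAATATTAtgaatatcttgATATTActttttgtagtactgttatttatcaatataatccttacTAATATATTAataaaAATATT
CG9135, chr2L:6051379-6051479: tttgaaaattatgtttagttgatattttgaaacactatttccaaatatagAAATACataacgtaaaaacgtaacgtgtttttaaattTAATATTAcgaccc
Hsp83, chr3L:3194215-3194315: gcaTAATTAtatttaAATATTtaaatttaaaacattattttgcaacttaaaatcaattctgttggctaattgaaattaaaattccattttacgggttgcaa
raw, chr2L:8717778-8717878: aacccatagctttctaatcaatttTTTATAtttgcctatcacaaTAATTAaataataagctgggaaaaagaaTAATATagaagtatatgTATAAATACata
Irk1, chr3R:23175582-23175682: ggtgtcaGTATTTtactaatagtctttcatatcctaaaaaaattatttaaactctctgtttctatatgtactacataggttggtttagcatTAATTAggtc
Csk, chr3R:11649601-11649701: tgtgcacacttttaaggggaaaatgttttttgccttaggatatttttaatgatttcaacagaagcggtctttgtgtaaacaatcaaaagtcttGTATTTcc
The first 5 lie in eff, which encodes a ubiquitin-conjugating enzyme, bon, the fly relative of the TIF1 transcription cofactors, mol, a maturation factor for dual oxidase, CG9135, and Hsp83, the fly Hsp90 chaperone. G and C made up 26.7% of the bases in the eff window, 22.8% in bon, 15.8% in mol, 22.8% in CG9135 and 20.8% in Hsp83. The windows in raw, a restraint on JNK signalling during dorsal closure, Irk1, an inwardly rectifying potassium channel, and Csk, which restrains Src-family kinases, were each taken as the strongest peak not already shown that holds TATAAA (raw), then TAATTA (Irk1), then GTATTT (Csk). The letters are those of the NCBI reference genome for dm6, not read from the embryos.

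The 10 strongest intron peaks lay at ranks 501 to 522 of the IDR list, directly below the cut that defines them, and at ranks 546 to 643 in replicate 1, 408 to 548 in replicate 2 and 429 to 635 in replicate 3. The eff peak (chr3R:14738431-14738884), in intron 2 of the longest transcript and intron 1 of another, had a signal of 1262, 1462 and 1201 in replicates 1, 2 and 3 and ranked 546, 548 and 429. The bon peak (chr3R:20594248-20594895), in intron 1 and 1334 bp from the start site, had signals of 1179, 1699 and 1026 and ranked 600, 430 and 542. Signal is the authors' value relative to the control on an unstated scale, so it orders peaks within 1 list and is not compared between lists. The mol peak (chr2L:14995644-14996292) lay in intron 1 at 1496 bp and ranked 619, 467 and 502. The CG9135 peak (chr2L:6051199-6051647) lay in intron 1 at 590 bp, the nearest to a start site of the 10, and ranked 559, 546 and 446. Both were in first introns, as was the bon peak. The Hsp83 peak (chr3L:3194016-3194473) lay in intron 1, 1049 bp from the start site, and ranked 622, 507 and 430. The Moe peak (chrX:8896037-8896516), in the gene for moesin, which links the membrane to actin, lay in intron 1 at 1717 bp and ranked 616, 518 and 449. Dad, the inhibitory Smad of Dpp signalling, was different in position. Its peak (chr3R:17064893-17065582) lay in intron 5 of the longest transcript around it, 7531 bp from the nearest start site, which belonged to Ns1, and it ranked 643, 455 and 507. The raw peak (chr2L:8717529-8718114) at 3245 bp and the Irk1 peak (chr3R:23175389-23175861) at 1759 bp were both in intron 2 of the longest transcript and in intron 1 of another, and ranked 606, 408 and 635 for raw and 607, 475 and 503 for Irk1.

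All 3 replicates gave nearly the same number of intron peaks under the same rule. The strongest 10650 peaks of replicates 1, 2 and 3, less their 500 strongest, held 2565, 2740 and 2661 of them, with a mean of 2655 ± 87.6 (SD, n = 3). Within the 10650 strongest peaks, 85.3%, 89.8% and 86.3% of the 2678 intron peaks had a summit within 100 bp in replicates 1, 2 and 3, and 1952 (72.9%) had one in all of them. The mean over replicates was 87.1% ± 2.34 (SD, n = 3), against 85.7% ± 1.84 for the 1719 intron peaks of genes of 50 kb or more, which was within the spread. The share matched in all was 70.3% for those of long genes, and 70.2% for all 7472 other peaks below the 500 strongest. Agreement was not the same at all ranks. Of intron peaks ranked 501 to 2000, 98.6% were matched in all 3 replicates, against 17.7% of those ranked 8001 to 10650. Each replicate list was cut at rank 10650 for this count. Against the whole lists of 30000 peaks, 93.0% were matched in all 3. The peaks in CHES-1-like (chrX:7706322-7707331, rank 1670) and aop (chr2L:2175925-2176312, rank 9113) had no summit within 100 bp in any replicate list. Overlap of the regions was not counted, so a replicate peak with its summit farther off is not excluded. The IDR list was made from these replicates, so agreement with them describes the list and is not independent evidence for it.

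Peak density fell with intron number. First introns held 1500 of the intron peaks (56.0%), and 56.4% ± 0.224 in the replicates (SD, n = 3), while they make up 40.1% of the eligible bases, that is, of all intron bases that the rule could have chosen. Density was 139 ± 5.05 peaks per Mb in first introns, 99.6 ± 4.28 in intron 2, 71.8 ± 3.97 in intron 3, 50.3 ± 1.14 in introns 4 and 5, and 23.9 ± 1.24 in introns 6 and beyond (SD, n = 3). Introns 4 and beyond held 7.73% of the peaks and 21.1% of the eligible bases. The replicates of successive classes did not overlap. The classes were not matched in intron length. Of the eligible bases in introns under 1 kb, 3.06 Mb were in later introns and 0.430 Mb in first introns. In genes of 50 kb or more the order was not the same: first introns had 85.3 ± 0.858 peaks per Mb and second introns 90.7 ± 3.43 (SD, n = 3). Numbering follows the longest transcript that holds the summit in an intron. Of the peaks, 72.4% had the same number in all transcripts (69.7% of eligible bases), and 71.1% lay in intron 1 of at least 1 transcript (51% of eligible bases).

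**Figure D1:**
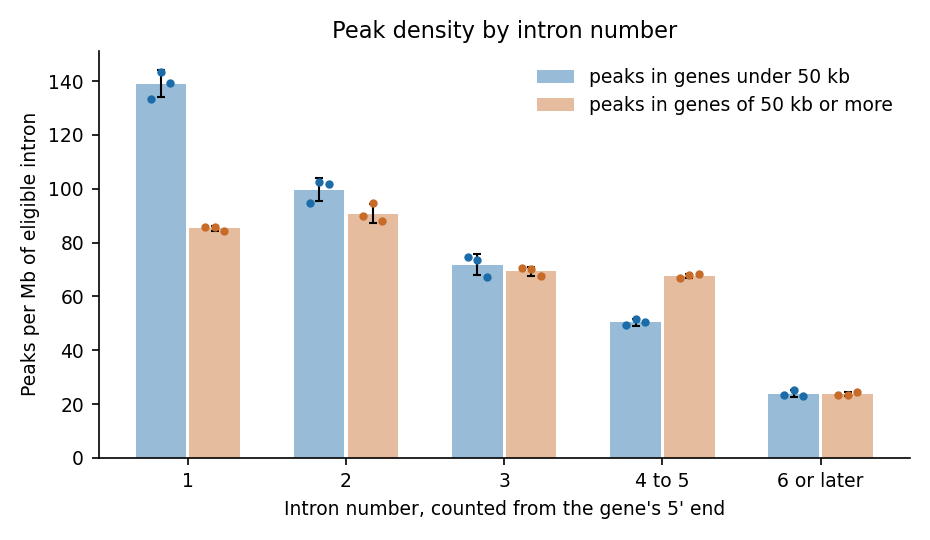
Peaks per Mb of eligible intron sequence by intron number, for genes under 50 kb and genes of 50 kb or more; bars are means and points the 3 replicates, with SD. In genes under 50 kb the means run from 139 in first introns to 23.9 in introns 6 and beyond.

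The peaks lay nearer to start sites than the eligible bases did, beyond the 500 bp that the rule removed. Their median distance to the nearest start site of any gene was 2652 bp in the IDR list and 2614 ± 27.8 bp in the replicates (SD, n = 3), against 3391 bp over the eligible bases. The quartiles were 1238 and 5817 bp, against 1591 and 6914 bp over the eligible bases. Density was 145 ± 2.99 per Mb from 501 to 999 bp, 121 ± 4.86 from 1000 to 1999 bp and 73.1 ± 1.88 from 10000 bp on. Within each distance class, first introns were denser than later introns. At 501 to 999 bp first introns had 172 ± 2.08 per Mb and later introns 109 ± 4.28, and from 10000 bp on first introns had 116 ± 6.04 and later introns 60.0 ± 0.720. The nearest start site belonged to the host gene for 73.6% of the peaks, against 65.8% of the eligible bases. For the other 708 it belonged to another gene, protein-coding for 448 and a non-coding RNA gene for 230.

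**Figure D2:**
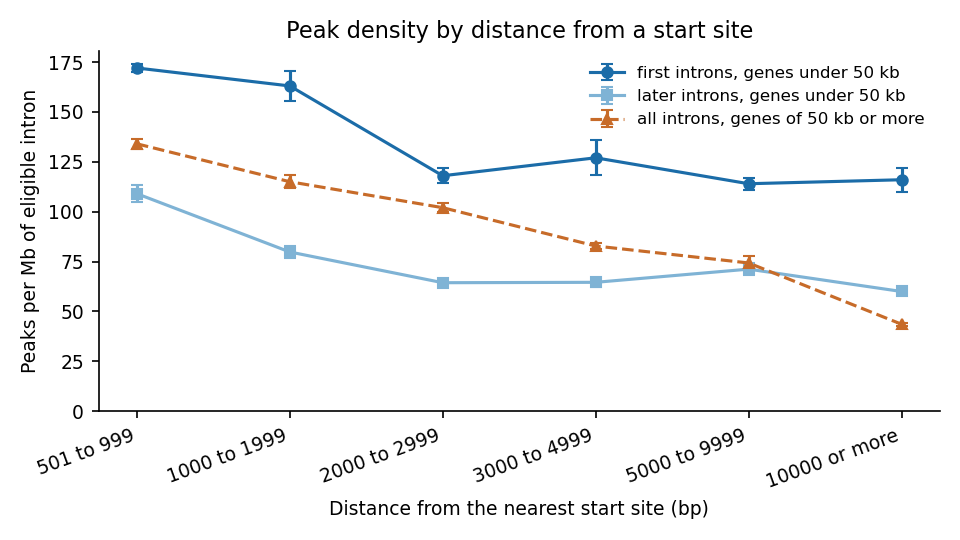
Peaks per Mb by distance of the summit from the nearest start site, in first and in later introns of genes under 50 kb; a dashed line gives all introns of genes of 50 kb or more; points are means of the 3 replicates and bars SD. First introns lie above later introns in every class, 172 against 109 at 501 to 999 bp and 116 against 60.0 from 10000 bp on.

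Position along the gene gave the same order. The first 20% of host genes, measured from the 5' end, had 154 ± 5.20 peaks per Mb, and the last 20% had 35.3 ± 1.01 (SD, n = 3). The median position was 32.5% of the gene for the peaks and 43.4% for the eligible bases. Inside its own intron a peak lay at a median of 43.1% of the intron's length, against 50.2% for the eligible bases. Within 200 bp of an intron end lay 4.44% of the peaks, against 16.9% of the eligible bases. These shares were not matched in intron length, and every base of a very short intron counts as near an end. Introns under 1 kb had 24.0 ± 1.19 peaks per Mb, against 99.0 ± 3.27 in all introns (SD, n = 3). Whether peaks were rarer near splice sites in introns of like length was not tested. A summit that fell in the neighbouring exon was outside the rule, so peaks that straddle a splice site are counted here only when their summit is on the intron side.

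Density also varied with the size of the intron and gene. Introns under 1 kb had 24.0 ± 1.19 peaks per Mb, those of 1 to 2 kb 75.2 ± 5.53, those of 2 to 5 kb 97.3 ± 3.46, and those of 5 kb and more 115 to 119 (SD, n = 3). In first introns alone the range was narrower, 89.2 ± 8.81 under 1 kb and 130 to 148 above 1 kb. Later introns had 14.8 ± 0.189 under 1 kb and 100 ± 6.07 at 20 kb or more, where first introns had 130 ± 5.07. First introns were denser than later introns in every length class. By gene span, density was 59.0 ± 3.44 under 5 kb, highest at 116 ± 3.08 for 20 to 30 kb, and 94.4 ± 5.25 for 40 to 50 kb. In genes of 50 to 100 kb it was 89.8 ± 2.16, and in those of 100 kb and more 43.3 ± 0.0783. Taken over all their introns, genes under 50 kb had 99.0 ± 3.27 peaks per Mb and genes of 50 kb or more 65.8 ± 1.06, a difference of 33.1 ± 2.79, higher in 3 of 3 replicates. The share of peaks in first introns was 56.4% ± 0.224 in genes under 50 kb and 23.1% ± 0.210 in genes of 50 kb or more. The difference was 33.4 ± 0.386 percentage points, higher in 3 of 3 replicates. The eligible bases themselves differed in that direction, with 40.1% and 17.8% in first introns. The higher share is therefore not shown to be particular to the peaks of shorter genes. For the difference in density and for that in share, the exact two-sided sign-flip permutation test over the 3 replicates gave p = 0.25. That is the smallest p that 3 replicates allow.

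The 2678 peaks lay in 1132 host genes, 14.1% of the 8047 protein-coding genes under 50 kb with at least 1 eligible intron base, and 974 of the 1132 were also hosts in all 3 replicates. Long genes offer more room: 1.69% of eligible genes under 5 kb had an intron peak, 39.1% of those of 10 to 20 kb and 77.9% of those of 40 to 50 kb. A single peak was found in 549 hosts, 5 to 9 in 122, and 10 or more in 19, which together held 225 peaks (8.40%). Of the peaks, 2129 (79.5%) shared their gene with another. The median gap between successive summits in a gene was 2138 bp.

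The 10 genes with most intron peaks held 11 to 16 of them, with ties at 11 settled by the strongest peak. tara, linked to the Trithorax group, had 16 intron peaks in the IDR list and 15, 14 and 17 in the replicates (3R, 16225651 to 16260329, plus strand), all in its first intron, at 546 per Mb. tna, also linked to the Trithorax group, had 15 peaks in the IDR list and 14, 16 and 15 in the replicates, again all in the first intron. siz, an exchange factor for Arf GTPases, had 12, all in the first intron, and 11, 12 and 12 in the replicates. NK7.1, a homeobox gene, had 13, of which 11 were in the first intron, and 15, 15 and 11 in the replicates. The other most populated genes were less confined. RhoGAP19D had 13 peaks with 1 in intron 1, and raskol, a Ras GTPase-activating protein, had 14 with 5 in intron 1. InR, the insulin receptor, had 12 with 5 in intron 1, Mnt, a Max partner in the Myc network, 12 with 4, CG42663 12 with 2, and gukh, a partner of Discs large, 11 with 9. These counts varied between replicates by at most a few peaks: raskol had 11, 14 and 11, and Mnt 10, 14 and 12.

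**Figure D3:**
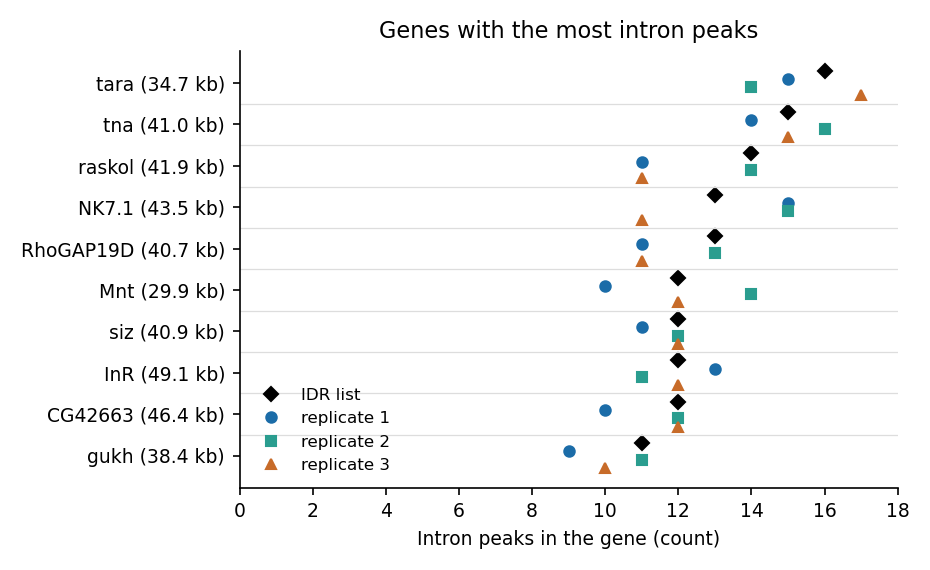
Number of intron peaks in the 10 genes with most of them, with each gene's span in brackets; black diamonds are the IDR list and coloured points the 3 replicates under the same rule. tara and tna lead with 16 and 15.

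Host genes had a peak at their own start more often than other eligible genes. An IDR summit lay within 500 bp of an own start site in 701 of 1132 hosts (61.9%), against 1498 of 6915 other eligible genes (21.7%), and in 27.3% of all 8047. In the replicates the share was 61.6% ± 3.79 in hosts and 23.9% ± 1.04 in the others (SD, n = 3), without overlap. The gap was also present among genes of like span and among genes with like numbers of start sites. Among genes of 10 to 20 kb, 65.4% of hosts and 26.6% of the others had a start peak, and among genes with 1 start site 52.2% and 17.6%. The 10 genes described above each had one, but crp, which ties with gukh at 11 intron peaks, had none.

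Gene groups differed in how densely their introns were occupied. Groups were described by the share of eligible genes with an intron peak and by density, with the room they offer, and no test was made of any group. Group names are short labels of gene lists, and a label does not describe every gene in its list. InR in the signalling list and E2f1 in the neural and mesoderm list are examples. Metabolic and housekeeping enzymes had 259 ± 7.62 peaks per Mb and EGFR, FGF, Dpp, JAK/STAT and Hippo signalling genes 223 ± 1.10 (SD, n = 3), against 99.0 ± 3.27 in all eligible genes. In the signalling group 29 of 62 genes were hosts (46.8%), with a median of 2924 eligible bp, against 14.1% and 439 bp for all eligible genes. Beside InR, these were led by vn, a ligand of the EGF receptor, with 10 peaks in the IDR list and 10 in each replicate, sog, an extracellular antagonist of Dpp, with 9 (12, 8 and 9 in the replicates), and kibra, an upstream Hippo pathway gene, with 9 (6, 10 and 8). In the metabolic group 17 of 49 genes were hosts (34.7%), with 3 peaks each in Acsl, bmm, Gclc and Pepck2, and a median of 1167 eligible bp. Its density rests on 33 peaks in 0.131 Mb. For every group the SD is the spread of the same genes over the replicates, and it does not cover counting error or differences between genes.

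Polycomb, Trithorax and chromatin regulators had 209 ± 5.37 peaks per Mb in little room, a median of 676 bp, with 14 of 59 genes as hosts. gpp, which encodes the Dot1 methyltransferase, had 9 (8, 9 and 10 in the replicates), HDAC4, a histone deacetylase gene, had 7 in the IDR list and in each replicate, and trx, the founding Trithorax gene, had 5 (5, 6 and 3). Notch, Wnt and Hedgehog genes had 151 ± 2.93 per Mb and 18 of 39 hosts, with a median of 6188 eligible bp. Wnt4, a Wnt ligand, had 8 in the IDR list and in each replicate, dlp, a glypican, 7 (7, 5 and 7), fng, a Notch-modifying glycosyltransferase, 6 (9, 7 and 5), and nkd, an inhibitor of Wingless signalling, 6 (5, 9 and 7). Neural and mesoderm transcription factors had 132 ± 4.54 per Mb and 25 of 50 hosts, with a median of 7424 eligible bp. This list had 11 peaks in crp (12, 8 and 14 in the replicates), and 8 each in aop, E2f1 and Mef2. Cytoskeleton, muscle structure and junction genes had 107 ± 1.95 per Mb and 24 of 75 hosts, with a median of 3523 eligible bp. They were led by Cip4, an F-BAR protein, with 7 (8, 9 and 6 in the replicates), and ena, an actin regulator, with 6 (5, 7 and 6). Germ line and RNA regulation genes had 103 ± 21.5 per Mb and 6 of 46 hosts, with a median of 1248 eligible bp. They were led by brat, a translational repressor, with 7 (6, 6 and 8). The germ line list read 90.6, 90.6 and 128 in replicates 1, 2 and 3, on either side of the level of all eligible genes.

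The 4 lists with the highest median of eligible bases per gene were below the level of all eligible genes per Mb. Axon guidance and cell adhesion genes had a median of 15290 eligible bp and 80.0 ± 1.07 per Mb, with 37 of 86 genes as hosts. They included mew, an integrin subunit, with 11 peaks (11, 10 and 11 in the replicates), NetA, a netrin, with 8 (9, 8 and 7), and unc-5, a netrin receptor, with 8 (7, 7 and 6). Homeobox and segmentation transcription factors had 54.6 ± 4.92 per Mb and 16 of 69 hosts, with a median of 7854 eligible bp. NK7.1 held 13 of their 40 peaks. Ion channel, synapse and neuropeptide receptor genes had 28.1 ± 1.37 per Mb and 24 of 92 hosts, with a median of 9714 eligible bp. They had at most 4 peaks in a gene (dlg1). Ecdysone response and nuclear receptor genes, at 92.3 per Mb in every replicate, were also below all eligible genes, which had 95.6, 102 and 99.2. The ecdysone list had 8 of 23 hosts and a median of 8042 eligible bp. Hr3, a nuclear receptor, had 6 (6, 6 and 7 in the replicates) and Eip78C, another, had 6 (6, 5 and 3). No ribosomal protein gene had an intron peak. Their 24 eligible genes offered 5.25 kb in all, with a median of 120 bp, and a count of 0 allows up to 571 peaks per Mb there, counting error only.

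**Figure D4:**
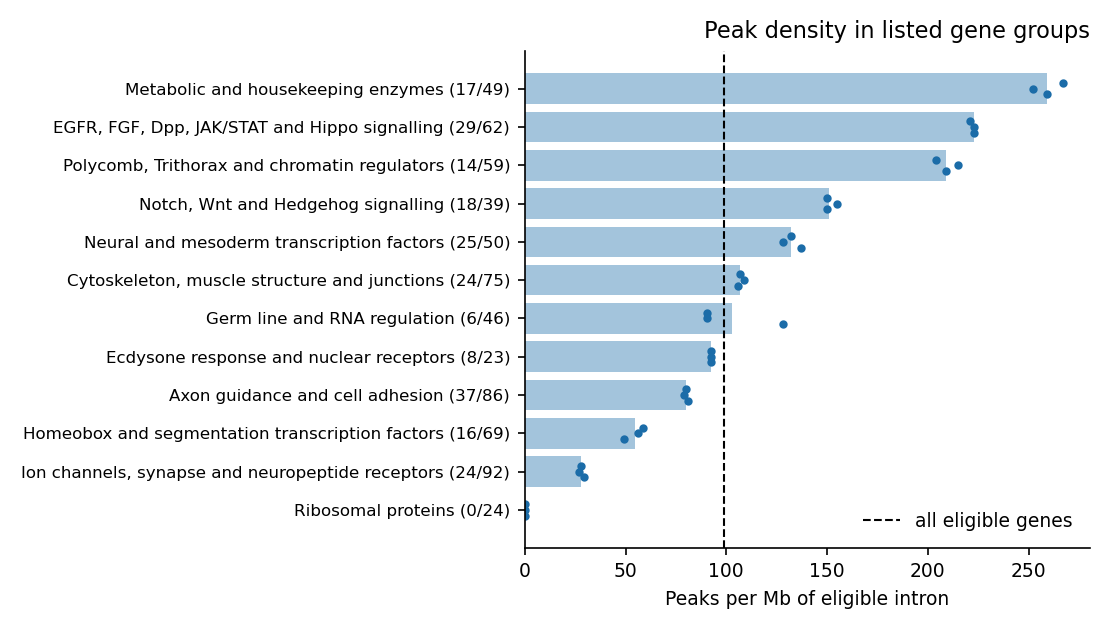
Peaks per Mb of eligible intron sequence in 12 listed gene groups; bars are means of the 3 replicates, points are replicates, the dashed line is the mean of all eligible genes, and hosts over eligible genes stand in brackets. Metabolic and housekeeping enzymes and the EGFR, FGF, Dpp, JAK/STAT and Hippo group stand highest, at 259 and 223.

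The summits were low in G and C, and the drop was local. Mean GC within 50 bp of the summit was 31.9% in the IDR list and 32.4% ± 0.473 in the replicates (SD, n = 3), against 39.3% over the eligible bases. Going outwards, GC averaged 31.4% over the central 25 bp to either side, 34.8% between 51 and 75 bp, 43.1% between 151 and 200 bp and 44.0% between 201 and 300 bp. Farther out it stayed between 40.6% and 43.8%. At 2281 summits (85.2%) it was lower than at 201 to 400 bp from the same summit. Beyond 100 bp the flanks were above the 39.3% of the eligible bases. The flanks count every base at that distance, exons and start-site regions included, while the eligible bases are intron only. Intron peaks of genes of 50 kb or more had 32.4%, and promoter peaks 35.1%. The difference from the long genes was −0.456 ± 0.288 percentage points, lower in 3 of 3 replicates (exact permutation test, two-sided, p = 0.25). The eligible bases themselves differed in that direction, with 39.3% in shorter genes and 40.1% in long genes. The lower value is therefore not shown to be particular to the peaks of shorter genes. GC was nearly the same in first and later introns, 31.7% and 32.2%, and near and far from start sites, 32.4% at 501 to 999 bp and 32.3% from 5000 bp on. It was lower in the stronger members: 30.6% above the median signal and 33.2% below it, a description of peaks ordered by the value that chose them.

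**Figure D5:**
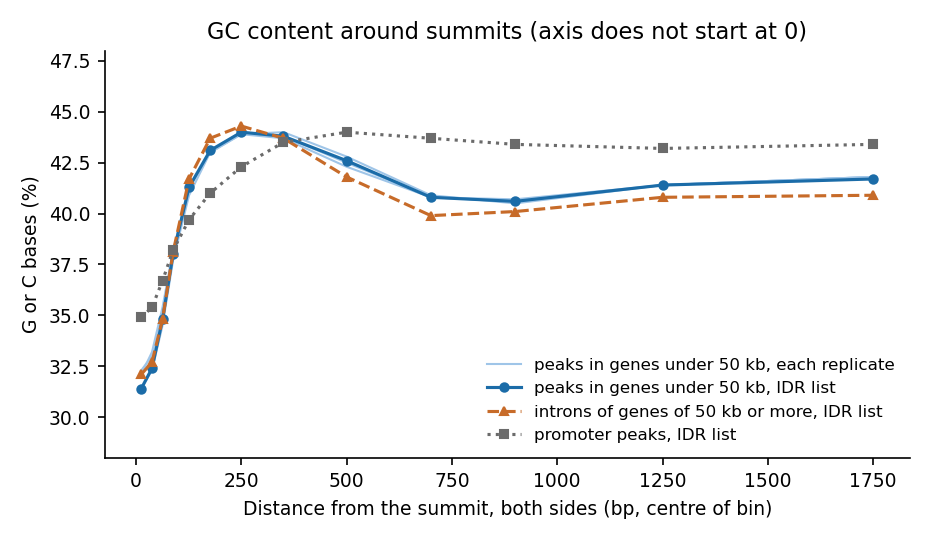
Mean GC content by distance from the summit for the intron peaks of genes under 50 kb, intron peaks of genes of 50 kb or more and promoter peaks in the IDR list; thin pale lines are the 3 replicates for the shorter genes. The axis of G and C does not start at 0. The intron peaks of shorter genes read 31.4% within 25 bp and 44.0% at 201 to 300 bp.

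A set of 5 short words known from earlier results of these data was counted in the same windows of 50 bp on each side, each on both strands, beside 246459 windows that tile the eligible sequence. TATAAA was in 728 windows (27.2%), 26.2% ± 0.913 in the replicates (SD, n = 3), against 13.6% of the tiles. ATATTA was in 22.4% against 10.4%, AATATT in 20.8% against 9.92%, GTATTT in 17.3%, at 1.72 times the share of the tiles, and TAATTA in 11.5% against 8.03%. AATATT and ATATTA overlap, so their counts are not separate. Intron peaks of genes of 50 kb or more held TATAAA in 23.6%, ATATTA in 22.6%, AATATT in 21.1%, GTATTT in 13.6% and TAATTA in 11.4%. Tiles weighted to the GC content of the summits narrowed these gaps: TATAAA was in 24.0% of weighted tiles, GTATTT in 14.2% and TAATTA in 12.3%, the last above its share in the summits. At 200 bp from the summit TATAAA was in 10.3%. At least 1 of the 5 was in 61.1% of summits, 37.4% of tiles and 55.9% of weighted tiles. Words of other factors differed in direction. TGATAA and GATAAG, which hold the core of GATA sites, were in 11.0% and 6.05% of summits, against 7.36% and 4.83% of tiles and 9.82% and 4.94% of weighted tiles. CACGTG, the E-box of bHLH factors, was in 0.747% against 1.13%, CAGCTG in 2.54% against 3.62%, and GAGAGA, bound by GAGA factor, in 3.47% against 3.89%, each rarer at summits than in tiles. With GC weighting these 3 were more common at summits, with 0.652%, 2.02% and 2.86% of weighted tiles. CACACA was in 7.69% of summits, 9.36% of tiles and 6.50% of weighted tiles. The ratio of summits to weighted tiles was 0.938 to 1.22 for the set of 5 words and 1.12 to 1.26 for the other words counted. A match is a string of letters and was not tested as a binding site.

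Few of the intron peaks lay in transposable elements or on chromosome 4. Of the peaks, 6 (0.224%) lay in an annotated transposable element, against 6.05% of the eligible bases. Intron peaks of genes of 50 kb or more had a like gap, 0.175% against 7.76%. How reads from repeated sequence were placed is not given in the sources used here. Whether peaks could be called in these elements was not tested. By arm, density was highest on X, at 129 ± 6.28 per Mb, then 112 ± 4.55 on 3L, 95.9 ± 2.77 on 3R, 89.4 ± 3.03 on 2R and 82.6 ± 1.12 on 2L (SD, n = 3). Chromosome 4 had 1 peak in 0.533 Mb, and 3.76 ± 1.88 per Mb in the replicates (SD, n = 3). The replicates had 3.76, 1.88 and 5.63. The IDR peak lay in zfh2, a homeodomain and zinc-finger gene (4, 505093 to 505542), and its window held 51.5% G and C. Transposable elements covered 0.160 of the 0.533 Mb of eligible bases on chromosome 4, against 0.291 of 6.86 Mb on 3R, where their share was lowest, and 0.351 of 4.96 Mb on 2R, where it was highest among the other arms. Their part in the count was not tested.

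The 3 peaks farthest from a start site were in GluRIB, a glutamate receptor subunit (chr3L:9284257-9284478, 32370 bp, intron 15), Nlg1, a neuroligin (chr3R:7686940-7687156, 28818 bp, intron 9), and stx (chrX:10717919-10718268, 26413 bp, nearest start of ras). The stx peak ranked 3013, 2460 and 2252 in the replicates, and the GluRIB peak 16521, 9399 and 9970, so the GluRIB peak was below the 10650 strongest in replicate 1. The cuts of the rule fell between near neighbours. By rank, the members eff, bon and mol at 501 to 503 had signals of 3902, 3876 and 3873, and kuk, CHES-1-like and CG42327 just outside, at 486, 496 and 498, had 3974, 3926 and 3909. By gene span, Octalpha2R, NetA and Dyrk2 spanned 49945, 49917 and 49649 bp, and Sytbeta, ab and pHCl-1 just outside 50283, 50403 and 50452 bp. By distance, jar, wech and CG18135 lay at 501, 501 and 503 bp, and CG4622, DopEcR and Dscam3 just outside at 500, 500 and 497 bp.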

How the data were processed

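Chromatin from 3 biological replicates of 0 to 18 h embryos was sequenced by ChIP-seq. The authors deposited peak lists in dm6, 1 per replicate of 30000 peaks, 1 from pooled replicates, and the optimal IDR list of 10650 derived from these, with 1 shared control alignment, per the deposited text files. Per the files the authors deposited, the signal value of a peak is relative to the control on an unstated scale. The authors' −log10 q-values share a top value of 4.30 and were not used. For the aligner, the peak caller and their versions, nothing is given in the sources used here. Read depth is unknown, and no interval resting on depth is given.

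Annotation was Ensembl release 115 on the 6 main arms. The same rule was applied to the 10650 strongest peaks of each replicate list, which gave the mean ± SD (n = 3). Eligible bases are all intron bases the rule could have chosen, and shares of peaks are set beside shares of these. Peaks are not replicates, so no test was run over peaks, and the permutation test over 3 replicates cannot go below p = 0.25. The numbering of introns follows the longest transcript of the host gene with an intron at the summit.

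The members, gene lists and words were chosen with earlier results of these data known. Genes named are hosts of the 10 strongest members, the 10 genes with most members, up to 4 hosts per gene group, the 3 members farthest from a start site, and the 3 on each side of each threshold. The genes zfh2, CHES-1-like and aop fall outside this rule where they are described as single peaks, and were chosen after their values were seen. Of the single peaks that this rule names, 1 of the 10 strongest is not reported here. Of 949 listed entries, 944 were matched. The member rule, distances and intron numbers were tested on simulated peaks. Computations used Python 3.11.15, numpy 2.4.6, pandas 2.3.3, scipy 1.17.1 and matplotlib 3.10.9.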

Additional observations from a re-analysis of the deposited data

How the results depend on the processing

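The IDR list held 2678 intron peaks, of which 56.0% were in first introns, with a median of 2652 bp to a start site, 72.9% matched in all replicates, 31.9% GC and 14.1% of eligible genes as hosts. A start-site window of 250 bp gave 57.1% in first introns, 2168 bp and 13.6% of genes, and one of 1000 bp 53.7%, 3514 bp and 15%. A gene limit of 30 kb gave 1717 peaks, 62.9%, 1938 bp and 11.4%, and one of 100 kb 46.8%, 3392 bp and 15.9%. Leaving out no strong peak gave 2606 bp, and leaving out 1000 gave 55.6%, 2715 bp and 13.5%. Peaks above the median signal alone gave 1317 peaks, 58.1%, 2312 bp, 95.9% matched, 30.6% GC and 9.63% of genes. Matching within 50 bp gave 61.5%, within 200 bp 77.4%, and against whole lists 93.0%. The lowest intron number over transcripts gave 71.1% in first introns, and peaks with 1 number in all transcripts 70.0%. GC was 31.4% within 25 bp and 34.1% within 100 bp. Genes with a peak above the median signal were 9.63%. Using 1 summit for each region gave 2570 peaks and moved no other value by more than the replicate SD. Leaving out each replicate in turn, which kept peaks matched within 100 bp in both others, gave 2048 to 2134 peaks, 56.5 to 56.6% in first introns, 2590 to 2620 bp, 91.5 to 95.3% matched, 31.1 to 31.4% GC and 12.3 to 12.7% of genes. That selection keeps every peak matched in all 3 replicates, so the matched share could only rise. The IDR list itself was not remade. Weighting tiles to the GC of the summits, an alternative chosen after seeing the data, gave a ratio of summits to tiles of 1.13 for TATAAA (1.99 unweighted), 1.22 for GTATTT, 1.14 for ATATTA and 1.20 for AATATT. For TAATTA it gave 0.938 (1.43 unweighted), on the other side of 1. No paired analysis was possible because the samples form 1 group, so no sample has a partner in another. Differences between classes of genes were taken within each replicate. Read depth is unknown, so what depth limits could not be stated.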

Other observations

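The deposited lists also hold 97 intron peaks of shorter genes among the 500 strongest, which the rule set aside. For the 708 peaks whose nearest start site was not the host's, the other biotypes were tRNA for 11, snoRNA for 8, pseudogene for 6 and snRNA for 5. Of the 2678 intron peaks, 28.5% had another in the same gene within 1000 bp and 13.7% had one within 500 bp. CAGGTA, the core of the Zelda word, was in 1.76% of summit windows against 1.81% of tiles and 1.51% of tiles weighted to the GC content of the summits. The 3 members that held GGTCACAC made up 0.112%, against 0.137% of tiles and 0.0989% of weighted tiles. The replicates gave 0.213% ± 0.0161 (SD, n = 3), above the share of the unweighted tiles.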
